A study of Homo sapiens with 9 samples.

Results

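The genes described are 37 regulators of splicing, chosen by name from the 35876 gene symbols of the count table: 20 heterogeneous nuclear ribonucleoproteins (hnRNPs), 12 serine and arginine rich proteins (the SR proteins SRSF1 to SRSF12), the transformer 2 proteins TRA2A and TRA2B, RBMX, and the polypyrimidine tract binding proteins PTBP1 and PTBP2. The list was drawn up with earlier results of these data known. All 37 were in the table, and all 37 were among the 11905 genes tested. They were measured by RNA sequencing in HEK293, an established human embryonic kidney cell line, in 9 libraries of 3 groups with 3 replicates each. The groups carried Cas9 alone (genotype CC_Cas9, here the Cas9 group), Cas9 with the recombinase Cre (CC_Cas9_Cre, the Cre group) or Cas9 with the recombinase Flpo (CC_Cas9_Flpo, the Flpo group). All groups thus shared Cas9, a nuclease that cuts DNA where its guide RNA pairs. Cre and Flpo are enzymes that recombine DNA at loxP and FRT sites. The series title names a chemically induced, reversible knockout system, while the labels give no compound, dose, time, promoter, clone or targeted gene, and do not spell out the prefix CC. The labels do not say whether the replicates were separate cultures, so p-values measure the spread between these libraries, which may be technical.

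HnRNPs coat nascent transcripts through RNA recognition motifs or KH domains, and many of them repress nearby splice sites. SR proteins bind exons through RNA recognition motifs and, through a domain rich in arginine and serine, recruit the splicing machinery, so that the balance of hnRNPs and SR proteins sets which exons are kept. Many genes of both families limit their own output by switching to transcripts with a premature stop codon, which nonsense-mediated decay then removes. In proliferating cell lines such as HEK293 most of these proteins are abundant.

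Promoter windows of 250 bases before the transcription start were taken from RefSeq (GRCh38.p14) for 34 of the 37 genes. HNRNPA1, SRSF2 and TRA2A were not matched. The windows shown belong to the 3 genes with the lowest Cre level relative to Flpo, and to SRSF4, the single gene whose Cre libraries all lay above its Flpo libraries. SRSF1 is read from the minus strand (chr17:58007247-58007496), HNRNPH2 from the plus strand (chrX:101407972-101408221), and HNRNPK (chr9:83980616-83980865) and SRSF4 (chr1:29181901-29182150) from the minus strand. Capitals mark matches, on either strand, to 4 promoter motifs. TATAAA is the motif that positions initiation in some promoters. The motif CCAAT is read by the factor NF-Y. The GC box, GGGCGG, is read by Sp factors. The last, TGACG, is the core of the cAMP response element. Overlapping matches were each counted.
SRSF1: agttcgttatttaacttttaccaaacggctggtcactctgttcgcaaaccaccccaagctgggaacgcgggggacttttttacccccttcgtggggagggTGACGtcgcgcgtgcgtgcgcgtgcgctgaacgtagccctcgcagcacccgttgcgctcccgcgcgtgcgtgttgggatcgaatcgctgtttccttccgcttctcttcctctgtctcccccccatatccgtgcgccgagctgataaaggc
HNRNPH2: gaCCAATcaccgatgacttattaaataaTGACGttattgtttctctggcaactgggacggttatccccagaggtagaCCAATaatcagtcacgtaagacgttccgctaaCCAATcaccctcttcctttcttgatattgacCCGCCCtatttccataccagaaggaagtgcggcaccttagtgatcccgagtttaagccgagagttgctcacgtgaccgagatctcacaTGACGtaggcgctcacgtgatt
HNRNPK: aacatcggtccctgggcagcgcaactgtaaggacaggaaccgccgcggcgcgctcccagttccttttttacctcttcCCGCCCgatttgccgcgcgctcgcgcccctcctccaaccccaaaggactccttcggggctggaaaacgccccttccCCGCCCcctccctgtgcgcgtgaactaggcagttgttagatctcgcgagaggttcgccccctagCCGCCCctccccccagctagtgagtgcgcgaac
SRSF4: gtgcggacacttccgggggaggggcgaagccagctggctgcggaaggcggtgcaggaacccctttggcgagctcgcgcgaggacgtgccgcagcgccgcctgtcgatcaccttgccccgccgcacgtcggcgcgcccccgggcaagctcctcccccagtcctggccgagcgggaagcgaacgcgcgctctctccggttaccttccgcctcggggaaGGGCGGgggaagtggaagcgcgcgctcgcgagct
The SRSF1 window held 1 TGACG match. The HNRNPH2 window held 3 CCAAT, 2 TGACG and 1 GC box matches. The HNRNPK window held 3 GC boxes and the SRSF4 window held 1. None of these 4 windows held TATAAA, and the CCAAT and TGACG matches were in the first 2 of them. Over all 49 windows of the 34 genes, TGACG was in 21 (42.9%, against 21.2% of all 35116 windows in the RefSeq table), CCAAT in 23 (46.9%, against 32.0%), the GC box in 30 (61.2%, against 42.6%) and TATAAA in 7 (14.3%, against 10.7%). Median GC content was 65.2% in the members' windows and 58% in all windows. The windows of the whole RefSeq table were not limited to genes tested here, nor matched for GC content. A match is a string of letters and was not tested for binding.

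The libraries were shallow and unequal. Total estimated counts ran from 993805 to 3761700 in the Cas9 group, from 213791 to 1701644 in the Cre group and from 4989407 to 8833391 in the Flpo group, so the deepest library held 41.3 times the counts of the shallowest, Cre replicate 2. All Cre totals and all Cas9 totals lay below all Flpo totals, so depth and recombinase cannot be told apart in either comparison with Flpo. At least 10 counts were found for 12 of the 37 genes in Cre replicate 2, for 32 to 35 in the other Cre libraries and Cas9 replicate 1, and for all 37 in the remaining 5 libraries. Levels are CPM (counts scaled to a common library total) after TMM, edgeR's correction for composition, whose factors ran from 0.663 to 1.32. Replicates are listed in the order 1, 2, 3. Of the markers of HEK293, 5 of 8 genes were tested, with summed levels of 251 to 649 CPM in Cas9, 230.0 to 941 in Cre and 312 to 560 in Flpo, and none passed the test. Most of that sum was VIM, at 591 CPM in Cas9 replicate 3 and 892 in Cre replicate 2, while PAX2 had a count of 0 outside Cas9 replicate 2. Summed levels reached 250 CPM for 5 haematopoietic markers, with LYZ at 249 in Cas9 replicate 1, and 213 for 4 keratin markers. The labels' extraction text mentions livers: 0 of 6 hepatocyte markers passed the low-count filter and their summed level was at most 7.47 CPM in any library, with ALB at a count of 0 in 8 of 9 libraries. Of 5 fibroblast markers 4 were tested and 3 collagen genes, COL1A1, COL1A2 and COL3A1, were higher in Cre than in Flpo (log2 fold changes of 3.04 to 3.47). The summed level of the 5 was 264 to 893 CPM in Cas9, 549.6 to 6484 in Cre and 253 to 326 in Flpo, and its part in the results below was not tested.

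Flpo replicate 2 stood apart from the other Flpo libraries. Flpo replicates 1 and 3 both lay above it in 29 of the 37 genes (78.4%, against 52.8% of all tested genes). It lay above all 3 Cas9 libraries in 20 of 37 (54.1%, against 22.7%). Across the 37 genes its levels had a rank correlation of 0.96 with Cas9 replicate 3, 0.78 with Flpo replicate 1 and 0.61 with Flpo replicate 3, while Flpo replicates 1 and 3 had 0.93 with each other. The points of these correlations are genes of the same libraries and are given as a description.

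Splicing regulator transcripts were lower in Cre than in Flpo for most of the family. Of the 37 genes, 25 (67.6%) passed the threshold as lower in Cre and 0 as higher (edgeR's quasi-likelihood test with Benjamini-Hochberg adjustment over 11905 genes, threshold 0.05), with 27 genes at an unadjusted p under that level. In bulk libraries fewer cells that express a gene and less RNA per cell cannot be told apart. Among all tested genes 14.3% were lower and 6.17% higher, and 4734 of 11905 had an unadjusted p under 0.05. Since the 37 genes were chosen with earlier results known, these shares are set side by side as a description. SRSF1 and HNRNPLL, both among the 25, entered the test only through the Flpo libraries, where they are high. On the Cas9 and Cre libraries alone 35 of the 37 genes and 10277 of the 11905 would have passed the low-count filter. The median log2 fold change was -2.42 over the 37 genes and -0.34 over all tested genes, a difference of -2.08. Without TMM the medians were -1.63 and 0.44, and the split of all calls turned from 735 higher and 1705 lower to 2039 higher and 840 lower, while 16 of the 37 genes stayed lower and 1, SRSF4, was higher. In 26 of the 37 genes every Cre library lay below every Flpo library (27.9% of all tested genes), and in 1 of them every Cre library lay above (15.2%). The genes with the lowest fitted values were SRSF1, HNRNPH2, HNRNPK, SRSF9 and SRSF2. At the other end HNRNPU, RBMX, HNRNPUL2, SRSF12, PTBP2 and SRSF4 had log2 fold changes above 0, none past the threshold. Without TMM 9 of the 37 genes were above 0, so which genes lie above 0 depends in part on scaling.

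These calls rested on few libraries. Without Cre replicate 2, Cre replicate 3 or Flpo replicate 1 the adjusted test called 0 of 37 genes and 0 of all genes. At an unadjusted p under 0.05 were 27, 26 and 26 of the 37. Among all genes tested in these fits, 4721 of 13691, 3359 of 13796 and 3233 of 12431 were under that level. Without Flpo replicate 3 it called 11, and 3.28% of all genes. With Flpo replicates 1 and 3 left out, a setting chosen after the data were seen, the median in Cre against Flpo was -1.22 against -0.20 for all genes. Without Flpo replicate 2 the count was 26, with 44.1% of all genes called against 20.5% on all 9 libraries. With log2 total count as a covariate the adjusted test called 0 of 37 and 0 of all genes. At an unadjusted p under 0.05 were 2 of the 37, and 732 of all 11905 genes. Totals did not overlap between Cre and Flpo, so this fit cannot separate depth from recombinase. With every library thinned to the smallest total, 16 of 29 tested genes were lower and 1, SRSF4, was higher, with 12% of all genes lower and 12.1% higher. DESeq2 called 25 lower and 1 higher, with 33.7% of all genes called. Limma's voom with quality weights called 28 lower and 2 higher, with 67.6% of all genes called. All 25 genes kept their sign when any single library was left out.

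**Figure D1:**
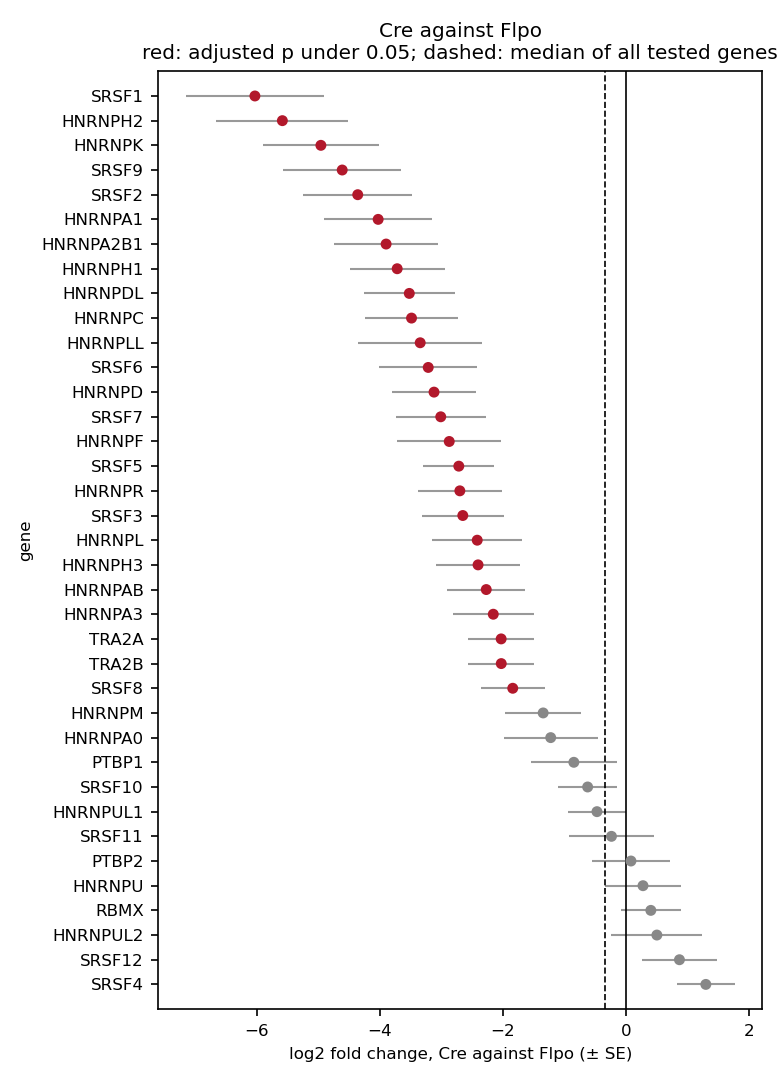
Log2 fold change of Cre against Flpo for each of the 37 genes (horizontal axis, bars are ± SE of the fit over 9 libraries), ordered from the lowest. Red points passed the adjusted threshold and are the 25 genes from SRSF1 (-6.03) to SRSF8 (-1.84), and the dashed line is the median of all tested genes at -0.34.

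**Figure D2:**
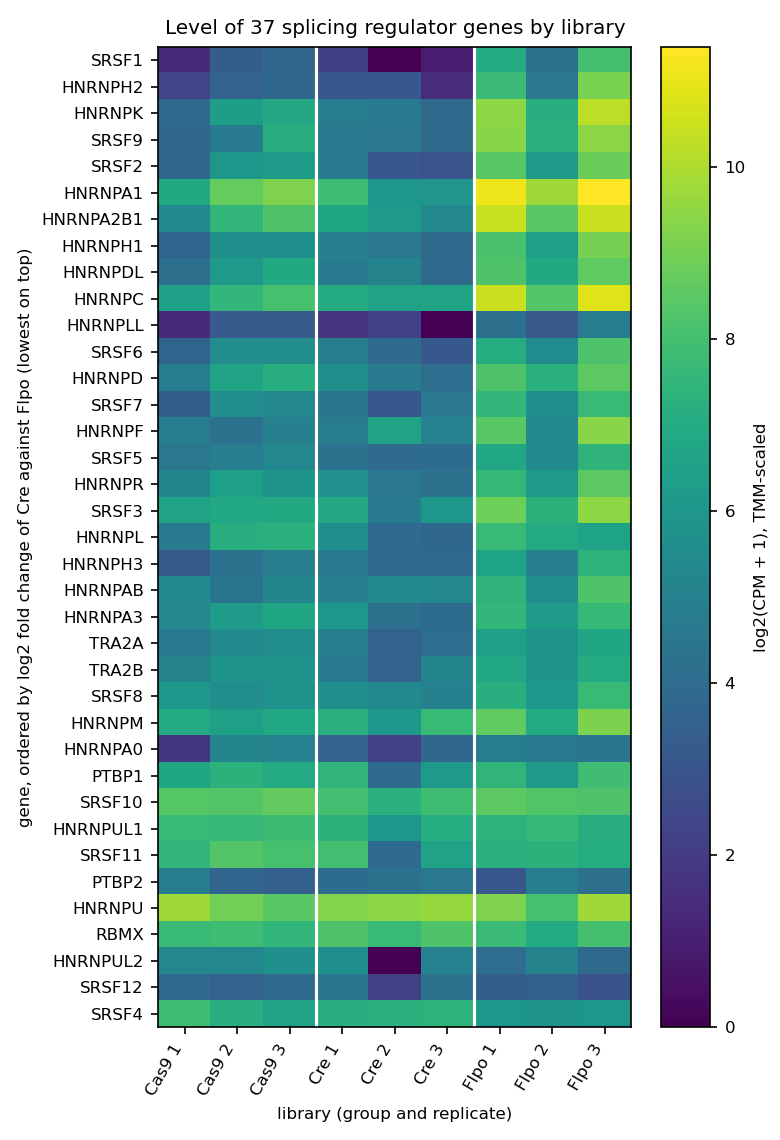
Level of each gene (rows, ordered as in the fold change plot) in each library (columns), as log2 of TMM-scaled CPM + 1. Rows from SRSF1 to HNRNPC are brighter in Flpo 1 and Flpo 3 than in other columns, while in the HNRNPU and RBMX rows the groups overlap.

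The summed level of the 37 genes was 3142, 4028 and 4511 CPM in the Cas9 replicates, 3339, 2113 and 2662 in Cre, and 12714, 4623 and 16684 in Flpo. The group means were 3893 ± 694, 2705 ± 614 and 11340 ± 6147 CPM (SD, n = 3 each). With TMM, Flpo replicate 2 lay just above Cas9 replicate 3, and the other 2 Flpo libraries were above every other library. On library totals without TMM the means were 4092 ± 252, 3385 ± 695 and 8119 ± 4386 CPM, and the position of Flpo replicate 2 turned: at 3625 CPM it lay below all 3 Cas9 libraries (3805, 4272 and 4199) and below Cre replicate 1 (4027). Shares of the summed counts were as follows. HNRNPU held 16.0% ± 10.6 of the 37 genes' counts in Cas9, 27.0% ± 7.61 in Cre and 5.21% ± 0.555 in Flpo. The HNRNPA1 row held 9.02% ± 4.70, 4.04% ± 2.48 and 17.6% ± 1.47 in the same order (SD, n = 3 each). With the counts of its pseudogene rows added to it and to the sum, HNRNPA1 held 13.7% ± 1.21 in Cas9, 15.5% ± 3.94 in Cre and 20.8% ± 5.31 in Flpo, and Cre replicate 2 (19.7%) lay above Flpo replicates 1 (18.7%) and 3 (17.0%). In every Cre library HNRNPU took a larger share of these counts than HNRNPA1, and in every Flpo library a smaller one. Per kilobase of mean transcript length, the highest levels in Cas9 were those of SRSF10 (191 CPM per kb), HNRNPA1 (169.6) and HNRNPU (128). In Cre they were those of HNRNPU (155), RBMX (145) and SRSF10 (114). In Flpo they were those of HNRNPA1 (882), HNRNPC (655) and SRSF9 (413).

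**Figure D3:**
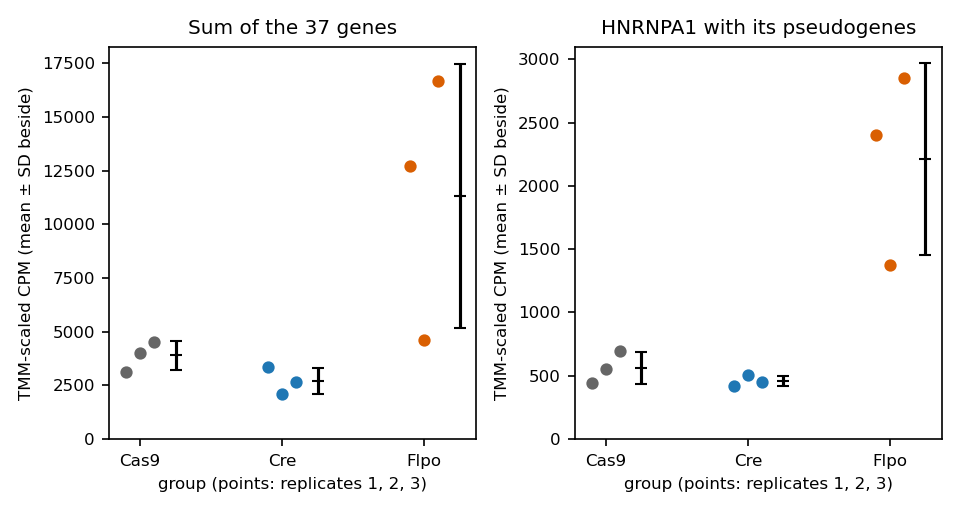
Summed TMM-scaled CPM of the 37 genes (left) and of HNRNPA1 with its pseudogene rows (right) in each library, with the group mean ± SD (n = 3) beside the points. Flpo 1 and Flpo 3 reach 12714 and 16684 CPM on the left, and Flpo 2 sits at 4623.

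The A and B type hnRNPs bind UAGG-like and AU-rich RNA. HNRNPA1 (chr12:54280193-54287088, plus strand, GRCh38), a repressor of exon inclusion that opposes SRSF1, had the highest mean CPM of the 37 genes, without correction for length: 119.7, 416 and 583 CPM in Cas9, 229, 63.5 and 60.1 in Cre and 2238, 884 and 2699 in Flpo. Every Flpo library lay above every other library, and the lowest values were in Cre replicates 2 and 3. Cre lay 16.3-fold below Flpo, a log2 fold change of -4.02 ± 0.882 SE with an adjusted p of 0.0174. HNRNPA2B1, its close paralog, measured 43.2, 178 and 295 CPM in Cas9, 104, 70.9 and 39.5 in Cre and 1399.8, 356 and 1442 in Flpo. Against Flpo the Cre group was 14.9-fold lower (log2 -3.90 ± 0.846 SE, adjusted p = 0.0172). HNRNPA3, a further A type protein, measured 37.4, 78.0 and 103 CPM in Cas9, 65.3, 18.7 and 15.4 in Cre and 187, 77.4 and 199 in Flpo. Its Flpo replicate 2 lay among the Cas9 values. It was 4.45-fold lower in Cre than in Flpo (log2 fold change -2.15 ± 0.656 SE) at an adjusted p of 0.0372. HNRNPA0, a binder of AU-rich mRNA, was at 2.49 to 35.6 CPM in Cas9, 3.73 to 12.9 in Cre and 21.6 to 26.6 in Flpo. All its Cre libraries lay below its Flpo libraries, and the difference did not pass the test (log2 fold change -1.22, adjusted p = 0.242).

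HNRNPA1 has many processed copies in the genome, and 75 rows of the table were named as its pseudogenes. Salmon divides a read among the transcripts it matches, so the counts of the gene and its copies are not separate measurements. Pseudogene rows held 72.8%, 24.8% and 16.0% of the summed counts of gene and copies in the Cas9 replicates, 45.7%, 87.4% and 86.6% in Cre, and 6.90%, 35.7% and 5.46% in Flpo. The 95% Wilson intervals were 80.8% to 92.0% in Cre replicate 2 and 5.13% to 5.80% in Flpo replicate 3, and cover counting error only. Gene and copies together measured 440, 553 and 695 CPM in Cas9, 423, 504 and 448 in Cre, and 2404, 1374 and 2855 in Flpo. Their means were 562 ± 128, 458 ± 41.5 and 2211 ± 759 CPM (SD, n = 3 each). The Flpo mean was 16.5 times the Cre mean for the HNRNPA1 row and 4.83 times for gene and copies together. With pseudogene counts added to each parent gene, a setting chosen after the data were seen, HNRNPA1 kept its call at a log2 fold change of -2.27 in Cre against Flpo (edgeR's quasi-likelihood test, adjusted p = 0.0293). The same 25 genes were lower under that setting. Of the 37 genes 19 had pseudogene rows, 131 rows in all. The same ratio of Flpo to Cre means was 30.7 for HNRNPK and 25.7 with its copies, 11.2 and 11.3 for HNRNPC, and 4.67 and 4.58 for HNRNPA3.

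HNRNPD, HNRNPDL and HNRNPAB bind AU-rich elements and are known for roles in mRNA decay and transport. HNRNPD measured 29.1, 101 and 142 CPM in Cas9, 49.2, 26.1 and 16.3 in Cre and 299, 150.02 and 364 in Flpo. For HNRNPD the Cre against Flpo log2 fold change was -3.12 ± 0.686 SE, or 8.68-fold lower, with an adjusted p of 0.0174. HNRNPDL, its paralog, followed the same order with 17.5, 71.1 and 119 CPM in Cas9, 25.3, 33.6 and 14.6 in Cre and 303, 122 and 387 in Flpo. The level in Cre was 11.5-fold lower than in Flpo (log2 fold change -3.52 ± 0.741 SE, adjusted p = 0.0167). In both genes all 3 Flpo libraries were above all other libraries. HNRNPAB measured 43.2, 20.7 and 35.7 CPM in Cas9, 30.2, 41.1 and 38.6 in Cre and 171, 48.8 and 303 in Flpo. Its Cre values lay inside the Cas9 range, and Flpo replicate 2 was just above both. Cre lay 4.82-fold below Flpo, a log2 fold change of -2.27 ± 0.631 SE with an adjusted p of 0.0290.

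HNRNPC, which binds uridine tracts and keeps exons from forming in Alu repeats, measured 91.4, 189 and 269 CPM in Cas9, 126, 93.3 and 99.5 in Cre and 1448, 323 and 1809.7 in Flpo. Flpo replicates 1 and 3 were far above the rest, and Flpo replicate 2 was nearer to Cas9 replicate 3. Against Flpo the Cre group was 11.2-fold lower (log2 -3.48 ± 0.748 SE, adjusted p = 0.0172). HNRNPK, whose KH domains bind cytidine-rich RNA and DNA, measured 14.96, 82.6 and 119 CPM in Cas9, 26.8, 26.1 and 14.6 in Cre and 714, 143 and 1214 in Flpo. The Cre libraries and Cas9 replicate 1 held the 4 lowest values. It was 31.0-fold lower in Cre than in Flpo (log2 fold change -4.95 ± 0.943 SE) at an adjusted p of 0.0167. In GENCODE 29 an exon of HNRNPK (chr9:83968083-83980616, minus strand) overlaps that of the microRNA gene MIR7-1.

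The F and H proteins bind runs of guanosine. HNRNPH1 measured 11.6, 52.2 and 51.7 CPM in Cas9, 30.7, 22.4 and 14.6 in Cre and 277, 88.7 and 532 in Flpo. For HNRNPH1 the Cre against Flpo log2 fold change was -3.72 ± 0.771 SE, or 13.1-fold lower, with an adjusted p of 0.0167. HNRNPH2 (chrX:101408295-101414133, plus strand), its near-identical X-linked paralog, measured 4.15, 10.9 and 12.8 CPM in Cas9, 7.80, 7.47 and 1.72 in Cre and 220.0, 22.5 and 543 in Flpo. Cas9 and Cre libraries were all at or below 12.8 CPM, and the Flpo libraries differed widely among themselves. The level in Cre was 47.8-fold lower than in Flpo (log2 fold change -5.58 ± 1.07 SE, adjusted p = 0.0167). The annotated readthrough gene RPL36A-HNRNPH2 shares exons with it, and reads common to HNRNPH1 and HNRNPH2 can be split between them. HNRNPH3 measured 8.31, 18.4 and 27.7 CPM in Cas9, 25.3, 14.9 and 13.7 in Cre and 98.2, 30.2 and 166 in Flpo. Cre lay 5.29-fold below Flpo, a log2 fold change of -2.40 ± 0.681 SE with an adjusted p of 0.0304. HNRNPF measured 27.4, 18.4 and 30.6 CPM in Cas9, 27.8, 93.3 and 31.7 in Cre and 360.4, 41.4 and 656 in Flpo. Here the groups overlapped, with Cre replicate 2 above Flpo replicate 2. Against Flpo the Cre group was 7.31-fold lower (log2 -2.87 ± 0.841 SE, adjusted p = 0.0335). HNRNPF was the single called gene whose groups overlapped, and its log2 fold change was 0.17 without Flpo replicates 1 and 3.

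HNRNPL and HNRNPLL bind CA repeats, and HNRNPLL is known for exon skipping in the CD45 transcript of lymphocytes. HNRNPL measured 24.9, 141 and 155 CPM in Cas9, 49.2, 14.9 and 12.9 in Cre and 213, 124 and 96.9 in Flpo. Cas9 replicates 2 and 3 lay inside the Flpo range, while Cas9 replicate 1 lay inside the Cre range. It was 5.34-fold lower in Cre than in Flpo (log2 fold change -2.42 ± 0.732 SE) at an adjusted p of 0.0368. HNRNPLL was low everywhere, with 1.66, 8.61 and 8.57 CPM in Cas9, 2.44, 3.73 and 0 in Cre and 17.3, 8.18 and 27.0 in Flpo. A count of 0 in Cre replicate 3 allows up to 2.57 CPM there, and the other Cre libraries had 5 counts and 1 count. For HNRNPLL the Cre against Flpo log2 fold change was -3.34 ± 1.01 SE, or 10.1-fold lower, with an adjusted p of 0.0362. HNRNPR, related to SYNCRIP, measured 34.9, 84.9 and 59.1 CPM in Cas9, 52.6, 22.4 and 18.02 in Cre and 192, 70.0 and 363 in Flpo. The level in Cre was 6.49-fold lower than in Flpo (log2 fold change -2.70 ± 0.680 SE, adjusted p = 0.0221). HNRNPLL and SRSF1 would not have passed the low-count filter on the Cas9 and Cre libraries alone. They entered the test through the Flpo libraries, where they are high.

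HNRNPM, the U group and RBMX did not pass the adjusted test. HNRNPM, which binds GU-rich RNA, had the sign of the called genes: it ranged from 67.2 to 208 CPM in Cre and from 124 to 574 in Flpo (log2 fold change -1.34, unadjusted p = 0.0474, adjusted p = 0.121). Its Flpo libraries all lay above its Cas9 libraries (log2 fold change 1.75, adjusted p = 0.147). HNRNPU (chr1:244840638-244864560, minus strand), also called scaffold attachment factor A, binds chromatin-associated RNA and had the second highest mean CPM. It measured 878, 494 and 354 CPM in Cas9, 622, 709 and 763 in Cre and 593, 267 and 869 in Flpo. The groups overlapped, and the lowest library was Flpo replicate 2 (Cre against Flpo log2 fold change 0.28 ± 0.619 SE, adjusted p = 0.754). HNRNPUL1 was at 63.5 to 222 CPM over the 9 libraries, with a log2 fold change of -0.47. HNRNPUL2 was at 14.4 to 51.7 CPM in 8 libraries and at a count of 0 in Cre replicate 2, which allows up to 11.2 CPM (log2 fold change 0.50). RBMX, the X-linked hnRNP G, was at 128 to 309 CPM (log2 fold change 0.40). None of these 5 genes passed edgeR's adjusted test in any of the 3 comparisons on all 9 libraries, and HNRNPM passed in Cre against Flpo without Flpo replicate 2 (adjusted p = 0.0185).

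**Figure D4:**
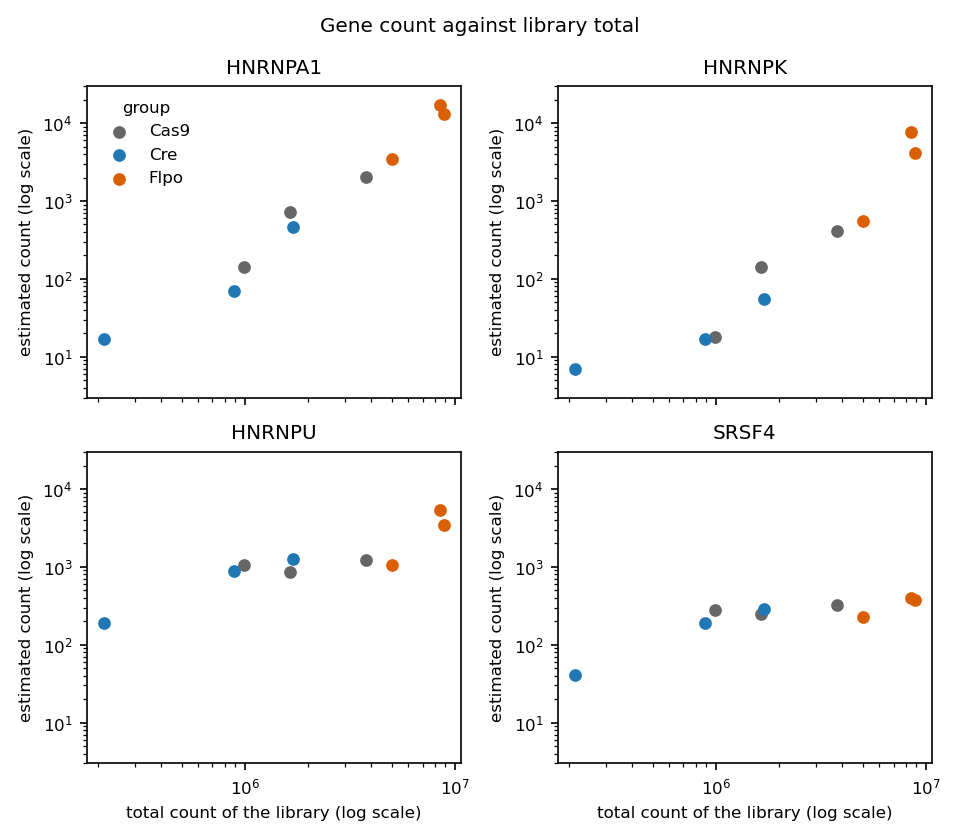
Estimated count of 4 genes (vertical axis, log scale) against the total count of each library (horizontal axis, log scale), coloured by group. HNRNPA1 and HNRNPK climb over several orders of magnitude, while SRSF4 counts stay within 2.08-fold in the 8 largest libraries.

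Raw counts, which carry no scaling, showed which genes followed the library totals. Over the 8 largest libraries, whose totals differed 9.91-fold, the highest estimated count was 2.08 times the lowest for SRSF4, 6.32 times for HNRNPU, 6.66 times for RBMX and 7.98 times for SRSF10. It was 242 times for HNRNPA1, 447 for HNRNPK, 1640 for SRSF1 and 1702 for HNRNPH2. The last 2 values divide by 1 count of SRSF1 and 2 counts of HNRNPH2 in Cre replicate 3. The HNRNPA1 value leaves out its pseudogene rows: gene and copies had 70 and 452 counts in Cre replicate 3, and 16906 and 976 in Flpo replicate 3. Counts of the first 4 genes thus moved less than the library totals and those of the last 4 moved more. Depth differed between the groups, and its part in these counts was not tested. The covariate fit above cannot separate depth from recombinase, since all Cre totals lay below all Flpo totals. The thinned libraries above bring every library to the smallest total.

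The SR proteins included the lowest fold change of the 37 genes. SRSF1 (chr17:58003360-58007346, minus strand), the founding SR protein and an enhancer of exon inclusion, measured 1.66, 9.18 and 12.6 CPM in Cas9, 3.41, 0 and 0.858 in Cre and 127, 18.4 and 262 in Flpo. The Cre values are 7, 0 and 1 counts, so the fold rests on 8 counts, and the 0 allows up to 11.2 CPM in that library. All Flpo libraries lay above all others. Cre lay 65.2-fold below Flpo, a log2 fold change of -6.03 ± 1.12 SE with an adjusted p of 0.0167. SRSF9, its closest relative, measured 12.5, 24.1 and 144 CPM in Cas9, 24.4, 22.4 and 14.6 in Cre and 659, 150.02 and 681 in Flpo. Cas9 replicate 3 was close to Flpo replicate 2, and the other Cas9 libraries were no higher than Cre replicate 1. Against Flpo the Cre group was 24.4-fold lower (log2 -4.61 ± 0.957 SE, adjusted p = 0.0167). Exons of SRSF9 overlap the gene GATC. SRSF2, a nuclear speckle protein also called SC35, measured 12.5, 63.7 and 75.7 CPM in Cas9, 25.3, 7.47 and 6.86 in Cre and 349.7, 76.4 and 461 in Flpo. It was 20.5-fold lower in Cre than in Flpo (log2 fold change -4.36 ± 0.884 SE) at an adjusted p of 0.0167. SRSF8, a gene derived from SRSF2, measured 67.3, 48.2 and 56.0 CPM in Cas9, 47.3, 41.1 and 30.9 in Cre and 146, 67.0 and 214 in Flpo. For SRSF8 the Cre against Flpo log2 fold change was -1.84 ± 0.516 SE, or 3.58-fold lower, with an adjusted p of 0.0296.

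SRSF3 and SRSF7, which also carry spliced mRNA to the export machinery, were also lower in Cre. SRSF3 measured 93.1, 112 and 122 CPM in Cas9, 118, 26.1 and 64.4 in Cre and 476, 161 and 713 in Flpo. The level in Cre was 6.28-fold lower than in Flpo (log2 fold change -2.65 ± 0.670 SE, adjusted p = 0.0222). SRSF7 measured 9.14, 47.6 and 38.5 CPM in Cas9, 21.0, 7.47 and 22.3 in Cre and 184, 47.5 and 208 in Flpo. Cre lay 8.04-fold below Flpo, a log2 fold change of -3.01 ± 0.731 SE with an adjusted p of 0.0204. In SRSF7 Flpo replicate 2 lay among the Cas9 values, and in SRSF3 it lay above them. SRSF5 measured 22.4, 28.1 and 39.1 CPM in Cas9, 18.5, 14.9 and 15.4 in Cre and 113, 43.4 and 169.9 in Flpo, with all Cre libraries below all Cas9 libraries and those below all Flpo libraries. Against Flpo the Cre group was 6.56-fold lower (log2 -2.71 ± 0.580 SE, adjusted p = 0.0170). SRSF6 measured 11.6, 47.6 and 46.5 CPM in Cas9, 27.3, 14.9 and 7.72 in Cre and 133, 45.2 and 299.7 in Flpo. It was 9.26-fold lower in Cre than in Flpo (log2 fold change -3.21 ± 0.795 SE) at an adjusted p of 0.0210.

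SRSF4, which belongs with SRSF5 and SRSF6 to the SR proteins with a pair of RNA recognition motifs, had levels in the opposite order. It measured 232, 145 and 92.8 CPM in Cas9, 139, 153 and 162 in Cre and 64.5, 57.5 and 62.7 in Flpo, with every Flpo library below every other library. The Cre mean of 152 ± 11.5 CPM stood against 61.6 ± 3.65 in Flpo (SD, n = 3 each). The difference missed the adjusted threshold (log2 fold change 1.30 ± 0.467 SE, edgeR's quasi-likelihood test, adjusted p = 0.0625). It passed in DESeq2 (adjusted p = 0.0115), in voom (9.77e-04), without TMM (0.0212) and in thinned libraries (0.0272). By edgeR's test it missed without the filter (adjusted p = 0.217), with the replicate number as a block (0.112) and with the covariate (0.913). It also missed with any single library left out (0.0516 to 0.220). SRSF10, a repressor of splicing when dephosphorylated, measured 336, 329 and 398 CPM in Cas9, 251, 153 and 231 in Cre and 370.4, 316 and 296 in Flpo. All its Cre libraries lay below all others, with a log2 fold change of -0.62 ± 0.477 SE against Flpo (adjusted p = 0.334). SRSF11 was at 14.9 to 326 CPM and SRSF12 at 3.73 to 21.0 CPM over the 9 libraries, with log2 fold changes of -0.24 and 0.87 that did not pass.

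TRA2A and TRA2B, which bind GAA-rich exonic enhancers, had the same fitted log2 fold change. TRA2A measured 23.3, 42.5 and 46.5 CPM in Cas9, 29.7, 11.2 and 16.3 in Cre and 84.9, 56.0 and 106 in Flpo. For TRA2A the Cre against Flpo log2 fold change was -2.03 ± 0.537 SE, or 4.08-fold lower, with an adjusted p of 0.0251. TRA2B measured 33.2, 59.1 and 55.7 CPM in Cas9, 25.3, 11.2 and 34.3 in Cre and 115, 59.3 and 130.1 in Flpo. The level in Cre was 4.07-fold lower than in Flpo (log2 fold change -2.03 ± 0.538 SE, adjusted p = 0.0252). PTBP1, which represses exons flanked by pyrimidine tracts, measured 106, 161 and 123 CPM in Cas9, 177, 14.9 and 70.4 in Cre and 177, 70.8 and 241 in Flpo. PTBP2, its paralog known from neurons, measured 27.4, 12.05 and 10.3 CPM in Cas9, 15.1, 18.7 and 22.3 in Cre and 7.59, 28.1 and 17.2 in Flpo. Both genes overlapped between groups, with Cre against Flpo log2 fold changes of -0.85 ± 0.694 SE (adjusted p = 0.367) for PTBP1 and 0.08 ± 0.634 SE (adjusted p = 0.932) for PTBP2.

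Ratios of related genes within a library do not depend on its scaling. They are given as log2 of the ratio of counts with 0.5 added to each, for 12 pairs. PTBP1 over PTBP2, a ratio known to fall as neurons form, was 1.93, 3.71 and 3.56 in Cas9, 3.53, -0.29 and 1.64 in Cre, and 4.52, 1.33 and 3.80 in Flpo. The groups overlapped, and the negative value came from Cre replicate 2, the shallowest library. TRA2B over TRA2A was 0.51, 0.47 and 0.26 in Cas9, -0.23, 0.00 and 1.05 in Cre, and 0.44, 0.08 and 0.29 in Flpo. The highest ratio, from 40 counts of TRA2B and 19 of TRA2A, was in Cre replicate 3. With the 0.5 added, every Flpo library lay above every other library in 2 of the 12 pairs: SRSF6 over SRSF4 and SRSF10 over SRSF12. For SRSF10 over SRSF12 the gap was narrow, with 4.90 in Flpo replicate 2, 4.81 in Cas9 replicate 2 and 4.79 in Cre replicate 2. The last value rests on 1 count of SRSF12. Without the added 0.5 the order turns: Cre replicate 2, with 41 counts over 1, lies above Flpo replicate 2, with 1236 over 41. The separation of this pair thus comes from the added count. SRSF6 over SRSF4, singled out after its values were seen, was -4.27, -1.60 and -0.99 in Cas9, -2.34, -3.21 and -4.32 in Cre, and 1.04, -0.35 and 2.25 in Flpo. HNRNPH1 over HNRNPH2, singled out likewise, was 0.33 and -0.03 in Flpo replicates 1 and 3 and between 1.38 and 2.81 in the other 7 libraries, so in those 2 libraries the paralogs had nearly equal counts.

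**Figure D5:**
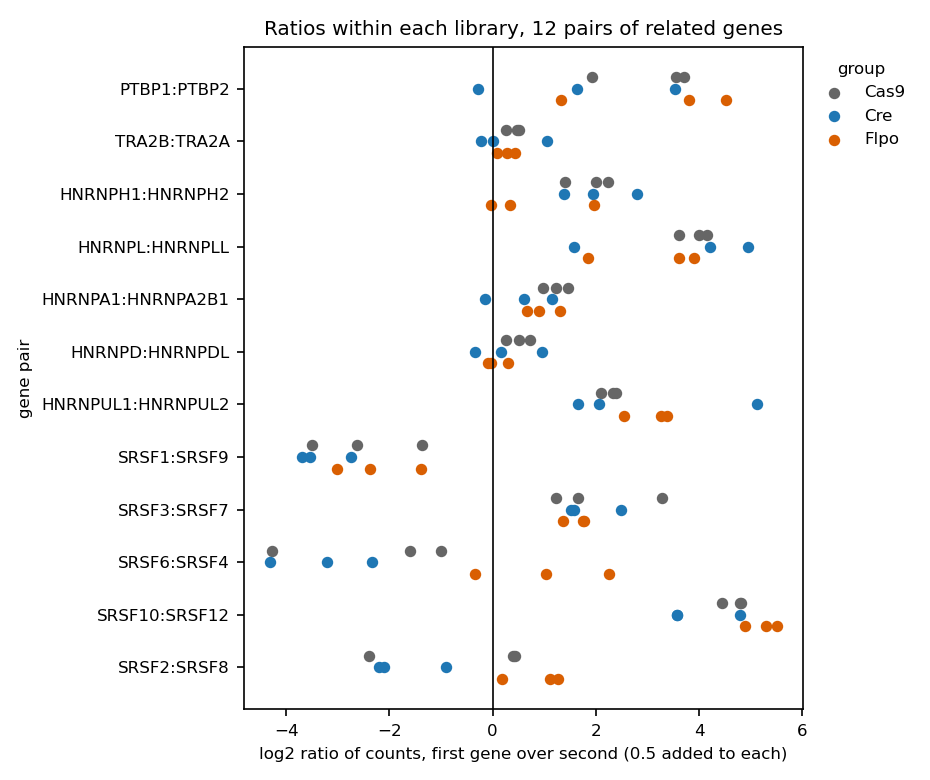
Log2 ratio of counts within each library (horizontal axis) for 12 pairs of related genes (rows), 1 point per library coloured by group. The SRSF6:SRSF4 row runs from -4.32 to -0.99 in Cas9 and Cre and from -0.35 to 2.25 in Flpo, while the TRA2B:TRA2A points stay between -0.23 and 1.05.

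Against Cas9 alone, no member passed the adjusted test in either recombinase group. These comparisons share libraries with the one above, and their values are given side by side. All Cas9 totals lay below all Flpo totals, so depth and recombinase cannot be told apart in Flpo against Cas9. In Flpo against Cas9 edgeR called 0 of 37 genes (0.227% of all tested genes), with 22 higher and 1 lower at an unadjusted p under 0.05 (13.2% of all genes were higher at that level). DESeq2 called 16 higher and 1 lower, and voom 25 higher and 3 lower, with 9.02% and 61% of all genes called. The median log2 fold change was 1.75 against 0.05 for all genes. Every Flpo library was above every Cas9 library in 19 of 37 genes (12.8% of all genes) and below in 5, HNRNPUL1, HNRNPUL2, SRSF4, SRSF11 and SRSF12 (12.2%). The highest log2 fold changes were those of HNRNPH2 (4.77 ± 0.976 SE, edgeR adjusted p = 0.0590), SRSF1 (4.05, adjusted p = 0.0690) and HNRNPF (3.79, adjusted p = 0.0690). SRSF4 was at -1.34 (unadjusted p = 0.0125, adjusted p = 0.139). The count rested on Flpo replicate 2: without it 21 of the 37 genes were called, all higher, and calls over all genes rose as well, from 0.227% to 21.3% (10.9% higher). HNRNPH2 was then at 5.29 with an adjusted p of 0.00148.

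In Cre against Cas9 edgeR called 0 of 37 genes and 0% of all genes. At an unadjusted p under 0.05 there were 4 of the 37 genes, all with lower fitted values in Cre: HNRNPD, HNRNPDL, HNRNPL and SRSF2 (7.38% of all genes in either direction). DESeq2 called 0 and voom 15, all lower, with 33.3% of all genes called. The median was -0.82 against -0.22 for all genes, with 29 genes below 0 and 8 above. Every Cre library lay below every Cas9 library in 4 genes, HNRNPUL1, SRSF5, SRSF8 and SRSF10 (6.37% of all genes), and above in 0 (3.46%). When the 3 groups were tested together 19 of 37 genes passed (9.51% of all genes), each of them also called in Cre against Flpo.

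Other parts of the splicing apparatus were read from lists that were chosen with earlier results of these data known. Of 46 core spliceosome genes, all tested, 12 (26.1%, against 14.3% of all tested genes) were lower in Cre than in Flpo and 0 higher, with a median log2 fold change of -1.36 against -0.34 for all genes. The lowest were SNRPG (-5.18, adjusted p = 0.0167) and SNRPB (-4.07, 0.0303), subunits of the Sm ring, SNRNP40 (-4.59, 0.0167), a U5 particle protein, and SF3B6 (-4.16, 0.0172), which contacts the branch point. Of 44 other splicing regulators 38 were tested, and 7 (18.4%) were lower and 0 higher, a share near the 14.3% of all genes, with a median of -1.02. They included ESRP2 (-3.57, 0.0293), a regulator of epithelial splicing, PCBP1 (-2.90, 0.0197), EWSR1 (-2.59, 0.0303) and KHDRBS1 (-2.54, 0.0368). SNRNP40 and ESRP2 each had 6, 0 and 1 counts in the Cre replicates, so their folds rest on few counts. Their Cas9 counts were 2, 19 and 45 for SNRNP40 and 2, 14 and 17 for ESRP2. Genes of these lists that reached the test only through the Flpo libraries, where they are high, were not set apart. Of 11 kinases and import factors of SR proteins, 0 were lower and 2 (18.2%, against 6.17% of all genes) higher: CLK3 (2.30, 0.0286) and DYRK1A (2.29, 0.0471), both of which phosphorylate SR proteins. CLK3 measured 716, 399.9 and 203 CPM in Cas9, 447, 291 and 728 in Cre and 93.5, 139 and 66.7 in Flpo. Of 10 nonsense-mediated decay factors 9 were tested, and UPF3A was higher (1.53, 0.0437) and 0 lower, with a median of 0.09. Adjusted p-values are those of edgeR's quasi-likelihood test. In the other comparisons edgeR called 0 genes of these 4 lists. At an unadjusted p under 0.05 in Flpo against Cas9, where 13.2% of all genes were higher, 12 of 46 core genes were higher and 1 lower, 3 of 38 other regulators were higher and 1 lower, 2 kinases or import factors were lower, and 1 decay factor was higher and 2 lower.

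Features of the genes that the choice of members did not use are given next, with only the transcript types set beside tested genes. A transcript annotated as subject to nonsense-mediated decay in GENCODE 29 was listed for 29 of the 37 genes (78.4%), against 45.3% of 11316 tested protein-coding genes. A retained intron transcript was listed for 27 (73.0%), against 60.3%. Gene-level counts do not separate these transcripts. Across the 37 genes Spearman's rho between the Cre against Flpo fold change and gene span was 0.44, with mean transcript length 0.35 and with mean level -0.14, given as a description over genes of the same libraries. In the promoter windows TGACG was found for 16 of the 22 matched genes that passed in Cre against Flpo and for 3 of the 12 others, the widest of the 4 splits. The counts were 14 of 22 and 6 of 12 for CCAAT, 15 and 8 for the GC box, and 5 and 2 for TATAAA, all given as a description. The same splits were not made over all tested genes. Exons of several of the 37 genes overlap another annotated gene, such as SRSF2 with MFSD11, HNRNPA2B1 with CBX3, HNRNPU with COX20 and HNRNPUL1 with TGFB1. The use of strand in counting is not given in the sources used here, so reads of such partners may not be told apart.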

How the data were processed

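RNA sequencing counts were analysed for 9 HEK293 libraries in 3 groups of 3, grouped by the genotype labels. The deposited table holds estimated counts per gene symbol, made by the authors with Salmon 0.14.1 on hg38, per the submitters' processing notes. The annotation, filters and use of strand are not given in the sources used here. In each library 48.7% to 60.8% of the nonzero entries had decimals, so estimated counts were rounded to whole numbers before the tests, which had been planned for whole counts. Per the labels' protocols, the extraction reagent was TRIzol and the kit TruSeq.

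The quasi-likelihood test of edgeR 4.0.16, run in R 4.3.3, was fitted to all 9 libraries at once, with TMM scaling, no covariate, and edgeR's default filter (minimum count 10, minimum total 15), which left 11905 genes. Benjamini-Hochberg adjustment ran over all of these, with a threshold of 0.05. Standard errors were derived from the log2 fold change and the F statistic (size of the former over the root of the latter). Alternatives used DESeq2 1.42.0, voom with quality weights (limma 3.58.1), other scalings and filters, the replicate number as a block, the log2 total count as a covariate, thinned counts, and fits without each library. A setting without Flpo replicates 1 and 3 and one with pseudogene counts added to the parent gene were chosen after seeing the data. The code was tested on simulated data. No value over the members as a set was tested.

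Genes were matched by symbol to GENCODE 29 (GRCh38), which held 35378 of 35876 symbols and all 37 members. Pseudogene rows are those named as a member's symbol followed by P and optional digits. The limit that a count of 0 allows, 3 counts, ranged from 0.479 CPM in Flpo replicate 3 to 11.2 CPM in Cre replicate 2.

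The members and the gene lists were chosen with earlier results of these data known. The rule for named genes gives every member past the threshold, and per-library values for these, for PTBP1, PTBP2, TRA2A and TRA2B, and for the 6 members with the highest mean CPM. From each list it gives up to 4 genes with the largest change past the threshold.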

Additional observations from a re-analysis of the deposited data

Results flagged for a closer look

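The test of Cre against Flpo asks whether the differences of the recombinase groups from Cas9 alone differ from each other, since both are taken against the same Cas9 libraries. By edgeR's quasi-likelihood test with Benjamini-Hochberg adjustment 25 of the 37 genes differed in this way, all lower in Cre. Of all tested genes 20.5% were called, with 14.3% lower in Cre. For HNRNPK the log2 fold change was -1.70 in Cre against Cas9 and 3.25 in Flpo against Cas9, neither past the adjusted threshold. SRSF1 and HNRNPLL, both among the 25, would not have passed the low-count filter on the Cas9 and Cre libraries alone. The call of any of the 25 genes was lost without Cre replicate 2, Cre replicate 3 or Flpo replicate 1, when 0 of 37 and 0 of all genes passed.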

How the results depend on the processing

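Of the 37 genes 25 were called in Cre against Flpo, and these 25 kept a negative fold change under every alternative in which they were tested except HNRNPF, at 0.17 without Flpo replicates 1 and 3. The count was 0 with log2 total count as a covariate (0% of all genes). With 1 library left out at a time it ran from 0 (0% of all genes) to 26 (44.1%). In Flpo against Cas9, with 0 called, it was 17 in DESeq2, 14 without a filter and 28 in voom (9.02%, 4.6% and 61% of all genes). It was 0 to 21 with 1 library left out: 1 without Cas9 replicate 3 (0.591% of all genes) and 21 without Flpo replicate 2 (21.3%). In Cre against Cas9, with 0 called, voom gave 15 (33.3% of all genes). Any difference among groups, 19 genes, became 12 without TMM, 9 in thinned counts and 32 in voom, where 8.09%, 8.38% and 79.6% of all genes were called against 9.51%. It was 0 with the covariate (0% of all genes), and 0 to 26 with 1 library left out (0.0723% to 33.3% of all genes). With the replicate block it became 7 (3.58% of all genes), and Cre against Flpo 18 (13.2%). Same-numbered libraries deviated together at a mean correlation of 0.12, -0.09 and -0.33 in Cre with Flpo, Flpo with Cas9 and Cre with Cas9. Single values ran from -0.55 to 0.53, and 3 of 9 comparisons were best with their own number. With 3 libraries per group these values cannot show whether replicates were paired. Over all genes Cre against Flpo gave 2440 calls, 3976 in DESeq2, 8043 in voom, 1568 with the block, 0 with the covariate and 1151 of 4773 in thinned counts. The summed CPM in Cre was 2705, or 3385 on library totals. The causes of these changes were not tested. Depth limits the Cre group most: 1 count in Cre replicate 2 is 3.73 CPM.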
